A study of Homo sapiens with 6 samples.

Results

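HLA class I molecules and the machinery that loads them with peptide were followed through 9 genes, chosen by symbol with earlier results of these data known. These were the heavy chains HLA-B, HLA-C, HLA-E and HLA-F, their light chain B2M, the peptide transporter genes TAP1 and TAP2, the class I transactivator NLRC5 and, from class II, HLA-DRA. They are 9 of the 31142 genes in the table, each under 1 identifier. The libraries came from cells labelled as SKM-1, an acute myeloid leukemia line derived from a myelodysplastic syndrome. In 3 libraries the cells expressed U2AF1 with the S34F mutation and in 3 they expressed wild-type (WT) U2AF1, and RNA was taken at 96 h. U2AF1 is the small subunit of the splicing factor that binds the 3′ end of introns. Per the study's methods, both forms were carried by a lentiviral vector with a ubiquitin promoter, a FLAG tag, a fluorescent reporter and puromycin resistance, on top of the cells' own wild-type gene. The WT samples carry a prefix that the study also uses for its negative controls, and its methods name a vehicle control for the RNA-seq, so what the WT cells received is not fully certain. The study speaks of independent RNA samples, but not of separate infections or clones, so p-values measure the spread between these samples.

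Class I molecules show peptides from inside the cell to CD8+ T cells. Proteasomes cut proteins, TAP1 and TAP2 together pump the peptides into the endoplasmic reticulum, and chaperones hold the heavy chain and B2M until a peptide fits. NLRC5 and, for class II, CIITA carry no DNA-binding domain of their own and act on promoters through the RFX, CREB/ATF and NF-Y factors, while interferons and NF-κB raise the same genes. HLA-E presents mainly leader peptides of other class I chains to the NKG2A receptor of NK cells, so it reports on class I synthesis. Many leukemias lower class I and class II, and the Polycomb repressive complex PRC2 has been linked to that loss.

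The approximate depth, read from the values of single-exon genes, was between 20.5 and 26.2 M fragments per library. A gene at about 3 fragments in the shallowest library was taken as at the detection limit, a limit that covers counting error only. U2AF1 itself had 9.24, 9.48 and 9.18 FPKM (fragments counted per kilobase of transcript and scaled to library size) in S34F replicates 1, 2 and 3 and 8.67, 8.70 and 7.65 FPKM in the WT replicates. All 3 S34F libraries were above the WT libraries, by 0.14 on the log2(FPKM + 1) scale (unadjusted p = 0.194 from limma), and gene-level values do not separate the mutant from the wild-type transcript. SKM-1 is known as a line of monocytic type, and most of the markers went against that label. The study also infected a second line, K562, from chronic myelogenous leukemia, and which line these libraries came from was not tested. Of 12 monocytic and myeloid genes, 8 had a mean under 1 FPKM and 3 were under the detection limit in all 6 libraries, while 10 of 12 erythroid genes averaged 10 FPKM or more, with a median of 551 FPKM and sums of 12198 to 13963 FPKM in S34F and 11784 to 12911 FPKM in WT. LYZ, SPI1, CD33 and ITGAM were the exceptions among the monocytic and myeloid genes, with means of 15.7, 10.6, 2.44 and 2.42 FPKM over the 6 libraries. The summed monocytic level was 23.8 to 37.4 FPKM in S34F and 34.6 to 38.3 FPKM in WT. CD33 and ITGAM were lower in S34F at unadjusted p = 0.0469 and unadjusted p = 0.0148 from limma, without reaching a fold of 1.5 on the log2(FPKM + 1) scale. They were 2 of the 4 monocytic genes tested, where 2.39% of all genes tested had an unadjusted p under 0.05. Both had an adjusted p = 0.9999 from limma. That scale understates the fold of low genes. The means in S34F and WT were 2.05 and 2.83 FPKM for CD33 and 1.81 and 3.03 FPKM for ITGAM. Of 8 B cell and dendritic markers 3 were in the table, all with a mean under 1 FPKM. Of 8 T and NK cell markers 5 were in the table, and the summed level of these was 9.39 to 16.1 FPKM in S34F and 18.2 to 18.9 FPKM in WT, nearly all from CD3D, and 3 of the 5 did not overlap between the groups, where 7.38% of all genes tested did not. CD3D, CD3G and, without a filter, NKG7 were lower in S34F at unadjusted p = 0.0797, unadjusted p = 0.0381 and unadjusted p = 0.00615 from limma. Their adjusted p-values from limma were 0.9999, 0.9999 and 0.999. In the fit without a filter 904 of 31142 genes had an unadjusted p under 0.05. The part of these markers in the results on class I was not tested. In such bulk RNA, fewer cells of a type and less RNA per cell cannot be told apart. The 2 libraries numbered 3 stood apart from the others. Their deviations from the group means correlated at 0.380 across genes. With the other group's libraries of other numbers the correlations were -0.20 to -0.29. Deviations from a group mean sum to 0 for each gene, so these negative values follow from the positive one and add nothing to it. Results are given with and without the 2 libraries numbered 3.

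The class I genes were present at very unequal levels. FPKM is a level per length of transcript, so it can be compared between genes, and the means over the 6 libraries fell from 86.7 FPKM for B2M and 27.2 FPKM for HLA-E to 7.87 for TAP2, 5.68 for TAP1, 1.60 for HLA-C and 0.772 for HLA-B. HLA-DRA followed at 0.250 FPKM, and NLRC5 at 0.0288 FPKM and HLA-F at 0.0278 FPKM lay around or under the detection limit. This order was set on the means of the same libraries, so how often it held is a description with no test. It held in 6 of 6 libraries for 6 of the 8 neighbouring pairs, and in 4 of these 6 pairs the ranges over the libraries did not overlap, the pairs of HLA-C with HLA-B and of HLA-B with HLA-DRA being the others. TAP2 was above TAP1 in 4 of 6 libraries, the exceptions being both libraries numbered 3. NLRC5 and HLA-F were in each order in 3 of 6 libraries and did not differ beyond their spread.

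**Figure D1:**
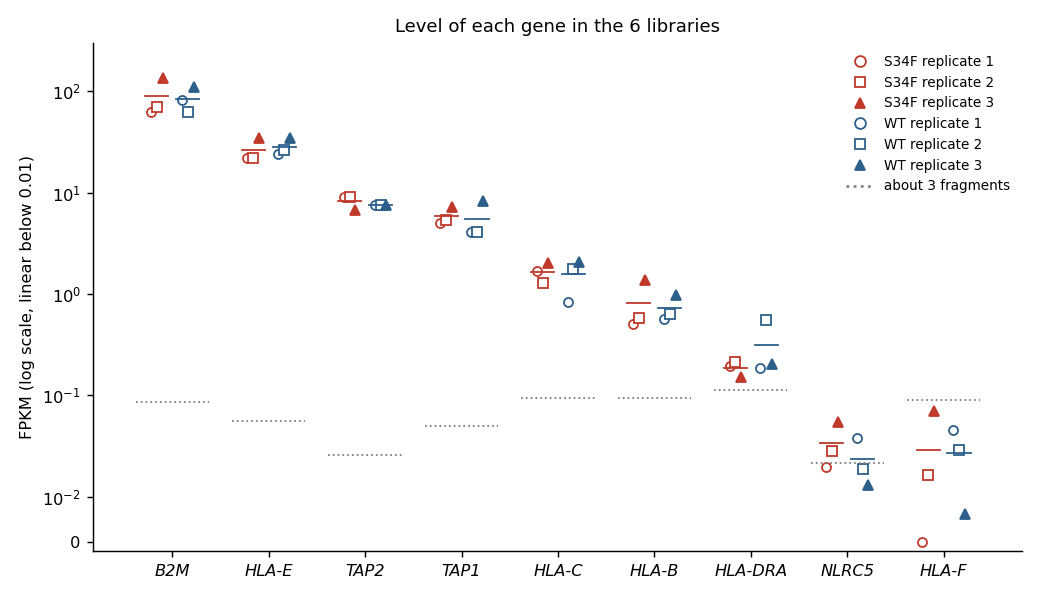
FPKM of the 9 genes (vertical axis, log scale, linear below 0.01) in each library, with replicates 1 to 3 as circles, squares and filled triangles, group means as short lines and the level of about 3 fragments dotted. S34F and WT points overlap for each gene, and the triangles of B2M, HLA-E, TAP1, HLA-C and HLA-B sit at the top of both groups.

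HLA-E (ENSG00000204592, GRCh38 chr6:30489467-30494205, plus strand) was by far the most abundant of the heavy chains. It had 22.0, 22.1 and 34.6 FPKM in S34F replicates 1, 2 and 3 and 23.7, 26.3 and 34.5 FPKM in WT replicates 1, 2 and 3. Replicate 3 was the highest in both groups and the groups overlapped. The difference on the log2(FPKM + 1) scale was -0.11 (standard error 0.22, 95% confidence interval -0.63 to 0.40, unadjusted p = 0.616 from limma).

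HLA-C (ENSG00000204525, chr6:31268749-31272130, minus strand), a classical heavy chain and the main ligand of the killer-cell immunoglobulin-like receptors, had 1.68, 1.28 and 2.0 FPKM in S34F and 0.838, 1.77 and 2.06 FPKM in WT. The lowest value was in WT replicate 1 and the highest in WT replicate 3, so the S34F libraries lay within the WT range. Its log2 difference was 0.08 (standard error 0.21, 95% confidence interval -0.43 to 0.58, unadjusted p = 0.729 from limma). HLA-B (ENSG00000234745, chr6:31269491-31357188, minus strand), the other classical chain listed, had 0.503, 0.585 and 1.37 FPKM in S34F and 0.565, 0.633 and 0.972 FPKM in WT. Its mean was under 1 FPKM, so it did not enter the filtered fit, and without a filter its log2 difference was 0.06 (standard error 0.21, unadjusted p = 0.802 from limma). The sign turned without S34F replicate 3, the highest of the 6 libraries, where the difference was -0.15 (unadjusted p = 0.314 from limma). It also turned without WT replicate 1, at -0.010 (unadjusted p = 0.970 from limma).

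HLA-F (ENSG00000204642, chr6:29722775-29738528, plus strand), a nonclassical chain, was listed at 0, 0.016 and 0.070 FPKM in S34F and at 0.046, 0.029 and 0.006 FPKM in WT. All 6 values were under its detection limit of 0.0895 FPKM, so no fold is given. These heavy chains resemble each other in sequence. Of all stretches of 50 bases in the longest coding transcript, 2.54% in HLA-B, 6.71% in HLA-C, 5.13% in HLA-E and 1.70% in HLA-F also occurred in transcripts of other genes, mostly of class I. The annotated spans of HLA-B and HLA-C also overlap on the same strand, and how the alleles of these cells match the reference was not tested, so the split of reads among the chains is uncertain.

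The sum of the 4 heavy chains does not depend on that split among them. It was 24.1, 24.0 and 38.03 FPKM in S34F replicates 1, 2 and 3 and 25.2, 28.7 and 37.5 FPKM in the WT replicates. The log2 ratio of the sums was -0.10 (two-sided exact permutation p = 0.6, n = 3 against 3, where 0.1 is the smallest p possible), and replicate 3 was again the highest of each group. Leaving out 1 library moved this value from -0.32 without S34F replicate 3 to 0.060 without WT replicate 3, and its sign also turned without S34F replicate 1 or 2. HLA-E made up 90.9% to 94.2% of the sum in every library, so the classical chains listed contributed little to it.

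B2M (ENSG00000166710, chr15:44711487-44718877, plus strand), the light chain shared by all class I molecules, was the most abundant of the 9 genes. It had 61.6, 69.6 and 136.0 FPKM in S34F replicates 1, 2 and 3 and 80.7, 62.4 and 109.9 FPKM in WT replicates 1, 2 and 3. S34F replicate 1 was the lowest of the 6 libraries and S34F replicate 3 the highest, so the WT libraries lay within the S34F range. The group means were 89.1 ± 40.8 FPKM in S34F and 84.4 ± 24.0 FPKM in WT (SD, n = 3), with a log2 difference of 0.02 (standard error 0.33, 95% confidence interval -0.77 to 0.82, unadjusted p = 0.943 from limma). This interval is wide enough to hold a 1.5-fold change either way. B2M was 2.17 to 3.58 times the summed heavy chains in FPKM, at 3.01 ± 0.520 in S34F and 2.77 ± 0.534 in WT (SD, n = 3, exact permutation p = 0.7).

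TAP1 and TAP2 form the heterodimer that moves peptides into the endoplasmic reticulum, and they lie close together in the class II region of the HLA locus. TAP1 (ENSG00000168394, chr6:32845209-32853978, minus strand) had 5.06, 5.40 and 7.12 FPKM in S34F and 4.13, 4.04 and 8.32 FPKM in WT. Within the libraries numbered 1 and 2 it was higher in S34F, and among those numbered 3 it was higher in WT. Its log2 difference was 0.13 (standard error 0.26, 95% confidence interval -0.49 to 0.75, unadjusted p = 0.636 from limma).

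TAP2 (ENSG00000204267, chr6:32821833-32838780, minus strand) had 9.06, 8.99 and 6.67 FPKM in S34F and 7.46, 7.51 and 7.54 FPKM in WT. The WT libraries were nearly equal, and S34F replicates 1 and 2 lay above them while S34F replicate 3 lay below. The log2 difference was 0.11 (standard error 0.13, 95% confidence interval -0.21 to 0.43, unadjusted p = 0.443 from limma). The ratio of TAP2 to TAP1 in FPKM was 1.79, 1.67 and 0.937 in S34F and 1.81, 1.86 and 0.906 in WT, so the 2 subunits changed places in both libraries numbered 3. In TAP2, 35.8% of the 50-base stretches of the longest coding transcript also occurred in other gene models, one named AL669918.1 and TAP1, so its read assignment is less certain than that of B2M, NLRC5 and HLA-DRA, where the share was 0.0%.

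NLRC5 (ENSG00000140853, chr16:56989485-57083531, plus strand), the transactivator of class I promoters, was close to absent. It had 0.020, 0.028 and 0.054 FPKM in S34F and 0.038, 0.019 and 0.013 FPKM in WT, around its detection limit of 0.0214 FPKM. Without a filter its log2 difference was 0.02 (standard error 0.02, unadjusted p = 0.447 from limma), and no direction can be read at this depth. HLA-DRA (ENSG00000204287, chr6:32439842-32445046, plus strand), the invariant alpha chain of HLA-DR, had 0.194, 0.213 and 0.153 FPKM in S34F and 0.186, 0.554 and 0.203 FPKM in WT. These are a handful of fragments in most libraries, against a limit of 0.114 FPKM, and WT replicate 2 alone stood above the rest. Its log2 difference without a filter was -0.14 (standard error 0.11, unadjusted p = 0.277 from limma), and -0.0096 without WT replicate 2 (unadjusted p = 0.810 from limma).

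Of the 9 genes, 0 had groups that did not overlap, where 7.38% of the 10942 genes tested did. Genes with a mean of at least 1 FPKM were tested, and 5 of the 9 were: HLA-C, HLA-E, B2M, TAP1 and TAP2. A gene was called changed with a fold above 1.5 and an unadjusted p under 0.05 from limma, the limits used in the study. By this rule 0 of the 5 were called, against 0.585% of all genes tested, and 0 had an unadjusted p under 0.05, against 2.39%. Adjusted p-values were 1.00 for all 5, and over all genes 0 had an adjusted p under 0.05 from limma, while 262 had an unadjusted p under 0.05. With the replicate numbers as a block the 5 genes had p-values between 0.273 and 0.878 from limma.

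**Figure D2:**
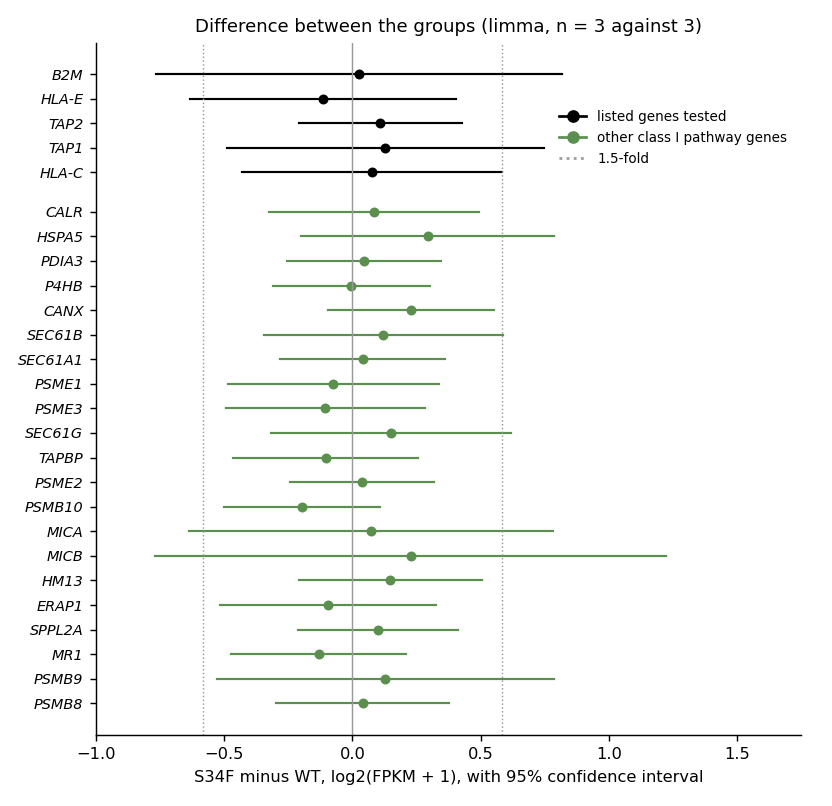
Difference between S34F and WT on the log2(FPKM + 1) scale (horizontal axis) with its 95% confidence interval from limma, n = 3 against 3, for the 5 listed genes tested (black) and the 21 other class I pathway genes tested (green), each set ordered by level. Every interval holds 0, and the widest are those of MICB and B2M.

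Without pairing of the libraries, no gene of the wider class I pathway passed the test between the groups. Of 32 further genes of peptide production, transport, loading and the class I-like molecules, 30 were in the table and 21 were tested. S34F was higher in 14 and lower in 7, with a median log2 difference of 0.045, against 0.015 over all genes tested, and 0 of the 21 had an unadjusted p under 0.05 from limma. The 3 most abundant were endoplasmic reticulum chaperones. CALR, which encodes calreticulin and holds heavy chains with B2M in the loading complex, had 540.4, 534.3 and 718.4 FPKM in S34F and 502.5, 505.7 and 686.1 FPKM in WT. HSPA5, the general chaperone BiP, had a log2 difference of 0.29 (95% confidence interval -0.20 to 0.79, unadjusted p = 0.202 from limma) without pairing. With the replicate number as a block it was the 1 of the 21 with an unadjusted p under 0.05 (unadjusted p = 0.012 and adjusted p = 0.994 from limma), where 4.05% of all genes tested had one, and it was under the 1.5-fold limit. PDIA3, the partner of calreticulin and tapasin, had a log2 difference of 0.04 (95% confidence interval -0.25 to 0.34, unadjusted p = 0.733 from limma). CANX, the membrane chaperone calnexin, was the 1 gene of the 30 whose groups did not overlap, where 7.38% of all genes tested did not, at 94.5, 94.1 and 126.8 FPKM in S34F and 87.1, 88.3 and 90.6 FPKM in WT (log2 difference 0.23, unadjusted p = 0.138 from limma).

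The subunits that turn a proteasome into an immunoproteasome were uneven in level. PSMB10 averaged 18.8 FPKM, while PSMB9, which lies beside TAP1 in the genome, averaged 1.99 FPKM and PSMB8 1.12 FPKM. PSMB9 had 1.69, 1.56 and 3.05 FPKM in S34F and 1.31, 1.29 and 3.03 FPKM in WT, and its ratio to TAP1 stayed between 0.289 and 0.428 across the 6 libraries. The tapasin gene TAPBP averaged 24.6 FPKM and the trimming peptidase ERAP1 3.42 FPKM, against 0.156 FPKM for ERAP2. MICA and MICB, class I-like ligands of the NKG2D receptor of NK cells that bind no B2M, averaged 15.5 and 10.4 FPKM and so stood above HLA-B and HLA-C.

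Class II was near absent. Of 18 further class II genes 14 were in the table, 12 of these had a mean under 1 FPKM and 6 were under the detection limit in all libraries. CD74, the invariant chain, was between 0.111 and 0.328 FPKM, and CIITA between 0.045 and 0.202 FPKM. HLA-DRB1 was listed at 0 in all 3 S34F libraries and at 0.094, 0.129 and 0.066 FPKM in WT, against a limit of 0.119 FPKM. The groups did not overlap, and the fit without a filter gave an unadjusted p = 0.00152 and an adjusted p = 0.999 from limma. The WT values of HLA-DRB1 amount to about 2.0 to 4.15 fragments per library, so no fold is given. With HLA-DPB1 this made 2 of the 14 class II genes without overlap, where 7.38% of all genes tested did not overlap. HLA-DPB1 was also lower in S34F, with all values under its limit of 0.0938 FPKM. HLA-DOB, a chain of the peptide-loading modulator HLA-DO, was the third in level of this list at 0.289 FPKM. Only lysosomal enzymes that other pathways use as well passed the filter. IFI30, a thiol reductase, was between 18.0 and 25.6 FPKM with a log2 difference of 0.20 (unadjusted p = 0.221 from limma). CTSS, the protease cathepsin S, had 2.37, 2.78 and 7.73 FPKM in S34F and 6.15, 6.31 and 6.60 FPKM in WT. S34F replicate 3 was the highest of the 6 and the other 2 S34F libraries were the lowest. The log2 difference of CTSS was -0.61 (unadjusted p = 0.119 from limma), and without S34F replicate 3 it was -1.04 (unadjusted p = 4.97e-05 and adjusted p = 0.109 from limma), where 1.65% of all genes tested were called. The monocytic marker LYZ had a like pattern, at 8.52, 8.82 and 23.2 FPKM in S34F and 18.8, 17.0 and 17.6 FPKM in WT, and its part in the values of CTSS was not tested.

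**Figure D3:**
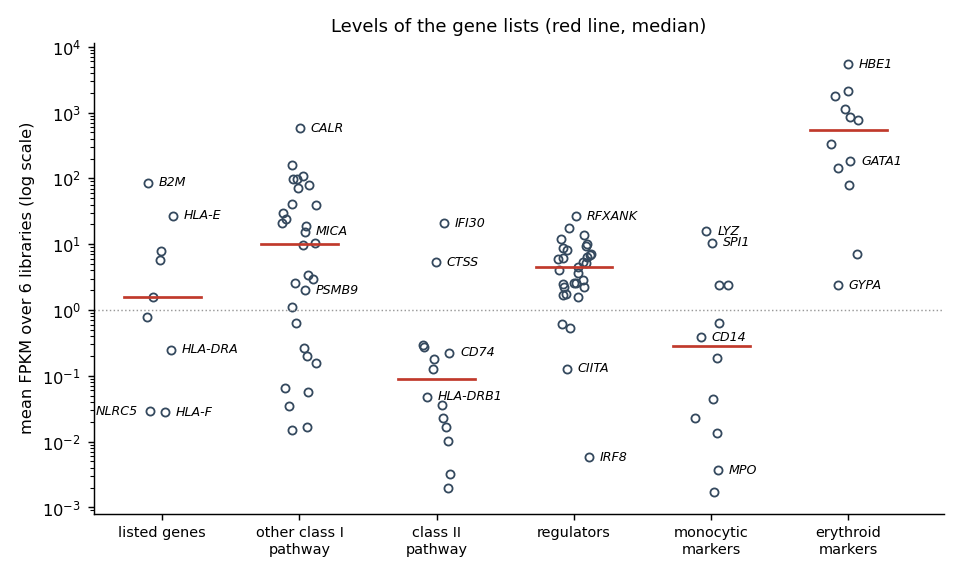
Mean FPKM over the 6 libraries (vertical axis, log scale) of each gene of 6 lists, with the list median in red and 1 FPKM dotted. The class I pathway has a median of 10.1 FPKM, the class II pathway 0.0882 FPKM, the monocytic markers 0.287 FPKM and the erythroid markers 551 FPKM.

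Most regulators of these promoters were expressed. Of 31 regulators, which include the RFX, NF-Y, CREB/ATF, IRF, STAT and NF-κB factors and subunits of PRC2, 27 were tested, and CIITA, CREB1, IRF9 and IRF8 had a mean under 1 FPKM. S34F was higher in 19 and lower in 8, with a median log2 difference of 0.044, and 0 were called. The most abundant were RFXANK, a subunit of the RFX complex, at 26.7 FPKM, EZH2, the methyltransferase of PRC2, at 17.7 FPKM, and RELA, a subunit of NF-κB, at 13.9 FPKM. Their log2 differences were -0.05, 0.11 and 0.37, with p-values of 0.815, 0.391 and 0.284 from limma. IRF8 was under its limit in all libraries. MTF2, an accessory subunit that directs PRC2 to its targets, was the 1 regulator of 27 with an unadjusted p under 0.05, where 2.39% of all genes tested had one. It had 2.98, 2.81 and 3.56 FPKM in S34F and 2.26, 2.12 and 1.99 FPKM in WT, with a log2 difference of 0.40 (unadjusted p = 0.0101 with a standard error of 0.11, and adjusted p = 1.00, by limma), under the 1.5-fold limit. Its groups did not overlap, nor did those of ATF1, whose log2 difference was 0.09, which makes 2 of 31 regulators, where 7.38% of all genes tested did not overlap.

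The class I genes varied with the library number. In both groups, the library numbered 3 held the highest value of HLA-E, HLA-C, B2M and TAP1, 4 of the 5 tested, and of HLA-B, which was under the filter. Over all genes tested, 21.3% were highest in both libraries numbered 3 and 29.4% were lowest in both. Replicate 3 over the mean of replicates 1 and 2, in FPKM, was 2.07 in S34F and 1.54 in WT for B2M. It was 1.57 and 1.38 for HLA-E, 1.36 and 2.04 for TAP1, 1.35 and 1.58 for HLA-C, and 2.53 and 1.62 for HLA-B. TAP2 went the other way in S34F, at 0.739, and was level in WT, at 1.01. On the log2(FPKM + 1) scale the median of the 5 genes tested was 0.38 in S34F and 0.45 in WT, against 0.0045 and -0.055 over all genes. These 5 genes share their libraries and the pattern was seen before it was counted, so these counts are a description with no test.

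The same held across the other class I pathway genes. Of the 21 tested, 20 were highest in both libraries numbered 3, or 95.2% against 21.3% of all genes tested, and PSME3, a proteasome activator of the nucleus, was the lowest in both. The list holds endoplasmic reticulum chaperones, such as HSPA5, that serve beyond class I. Other genes of that compartment were not compared. The margin was mostly small, with medians of 0.33 in S34F and 0.28 in WT, and 2 of the 21 exceeded 1.5-fold on the log2(FPKM + 1) scale in both groups, against 1.63% of all genes, as did B2M among the 5. For MICB replicate 3 was 2.44 and 2.29 times the mean of the other 2 in FPKM, and for PSMB9 1.88 and 2.33 times. Of the 27 regulators 6 were highest in both, or 22.2%, near the share over all genes, and 8 were lowest in both. The 6 were IRF1, IRF2, RELA, NFKB2, NFYC and EZH1, of which IRF1 had 2.31, 2.42 and 4.32 FPKM in S34F and 2.29, 2.17 and 3.45 FPKM in WT. All 3 RFX subunits, RFX5, RFXAP and RFXANK, were lowest in both. After upper quartile, median-ratio or quantile scaling the counts stayed at 4 of 5 and 20 of 21, with 22.9% to 23.7% of all genes. Depth was not set apart in these libraries, at 24.9 and 24.8 M fragments. Of the 12 erythroid markers 1 was highest and 6 were lowest in both libraries numbered 3, and of the 4 monocytic markers tested 1 was highest and 1 lowest, and their part in the pattern was not tested. Replicate number, culture and library cannot be told apart here.

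**Figure D4:**
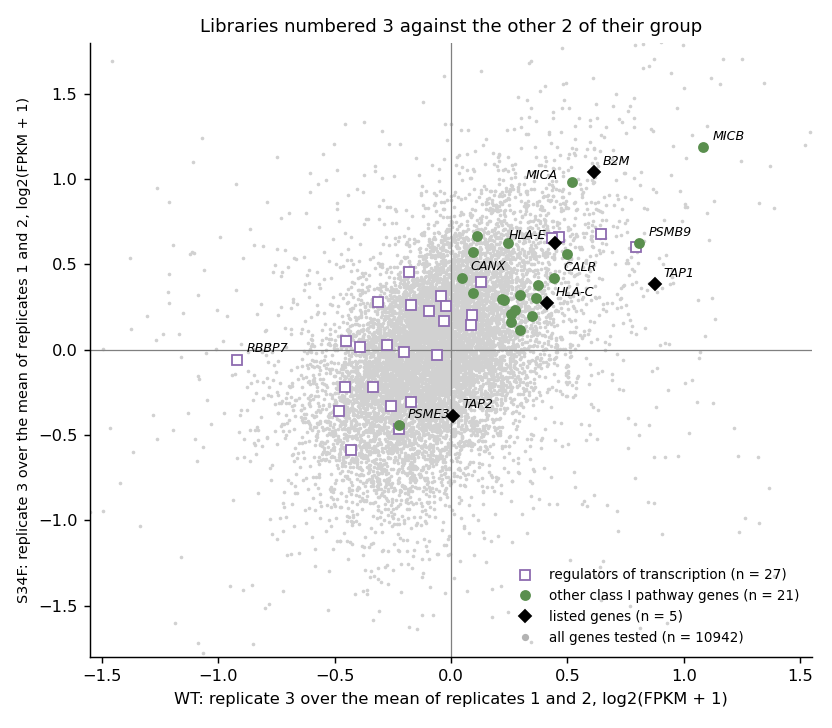
Replicate 3 over the mean of replicates 1 and 2 on the log2(FPKM + 1) scale, in WT (horizontal axis) and S34F (vertical axis), for genes with a mean of at least 1 FPKM, which are 5 of the 9 listed genes (black), 21 other class I pathway genes (green), 27 regulators (open squares) and all 10942 genes tested (grey, points beyond the axes not drawn). Except for TAP2 and PSME3, the black and green points lie above 0 on both axes, while the regulators lie on both sides of 0 on each axis.

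Without both libraries numbered 3 the transporter genes separated the groups. TAP1 was higher in S34F by 0.29 on the log2 scale (unadjusted p = 0.00961 from limma) and TAP2 by 0.24 (unadjusted p = 0.00892 from limma), both under the 1.5-fold limit. In that fit of 2 against 2 libraries 16.9% of all genes tested had an unadjusted p under 0.05, and 2 of the 5 listed genes did. HLA-E was at -0.17 (unadjusted p = 0.0577 from limma), B2M at -0.11 (unadjusted p = 0.486), HLA-C at 0.13 (unadjusted p = 0.609) and HLA-B, without a filter, at -0.051 (unadjusted p = 0.514) in the same kind of fit. With 1 library left out, TAP1 was at 0.42 without WT replicate 3, its highest library (unadjusted p = 0.0415 from limma). TAP2 was at 0.24 without S34F replicate 3, its lowest library (unadjusted p = 0.0193 from limma). Of the 10942 genes tested, 349 in the first of these fits and 1160 in the second had an unadjusted p under 0.05 from limma. Without S34F replicate 1 or 2 the value of TAP2 was 0.042 and 0.047 (unadjusted p = 0.796 and unadjusted p = 0.775 from limma).

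The promoters of the genes that were high together in the libraries numbered 3 are shown beside that of TAP2, which was not, and that of HLA-F, which was too low to tell. RefSeq promoter sequences (GRCh38.p14) were matched for 6 of the 9 genes, not for NLRC5, HLA-E and HLA-DRA, and the stretch from -180 to -21 relative to the start site, 160 bases, is printed in the direction of transcription. Capitals mark matches, on either strand, to TGACG (the core of the CREB/ATF site), ATTGG (the NF-Y box), to GAA or GAAA followed after any 2 bases by GAAA (a pattern of interferon regulatory factor sites) and GGGGATTC (part of an NF-κB site). Overlapping matches run together. For TAP1 the table holds 2 start sites, and the stretch of the first is printed. The stretch of the second, chr6:32852782-32852941, and its whole window held no match to any of these motifs.
HLA-B, chr6:31357200-31357359, minus strand: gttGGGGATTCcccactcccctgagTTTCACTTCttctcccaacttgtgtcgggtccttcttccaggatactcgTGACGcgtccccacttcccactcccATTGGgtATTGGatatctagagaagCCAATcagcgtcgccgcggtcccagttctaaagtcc
HLA-C, chr6:31272113-31272272, minus strand: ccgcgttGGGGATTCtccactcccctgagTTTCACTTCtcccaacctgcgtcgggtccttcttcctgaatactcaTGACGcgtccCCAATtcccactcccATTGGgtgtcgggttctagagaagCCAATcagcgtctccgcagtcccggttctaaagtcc
HLA-F, chr6:29723254-29723413, plus strand: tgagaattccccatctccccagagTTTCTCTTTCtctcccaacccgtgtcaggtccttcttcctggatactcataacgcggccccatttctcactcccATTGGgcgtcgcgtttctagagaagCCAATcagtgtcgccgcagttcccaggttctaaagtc
B2M, chr15:44711337-44711496, plus strand: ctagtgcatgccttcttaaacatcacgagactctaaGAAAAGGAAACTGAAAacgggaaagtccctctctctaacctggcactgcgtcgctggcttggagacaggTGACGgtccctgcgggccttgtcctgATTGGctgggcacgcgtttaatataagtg
TAP1, chr6:32853725-32853884, minus strand: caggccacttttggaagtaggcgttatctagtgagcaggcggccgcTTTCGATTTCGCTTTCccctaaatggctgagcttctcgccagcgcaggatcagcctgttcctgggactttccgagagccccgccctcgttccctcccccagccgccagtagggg
TAP2, chr6:32838760-32838919, minus strand: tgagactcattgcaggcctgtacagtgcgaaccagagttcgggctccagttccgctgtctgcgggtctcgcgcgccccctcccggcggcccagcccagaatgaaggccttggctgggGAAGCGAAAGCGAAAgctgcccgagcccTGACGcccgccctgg

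The promoters of HLA-B, HLA-C and B2M held TGACG followed after 20 or 21 bases by ATTGG, the spacing of the X2 and Y boxes of the class I module on which NLRC5 acts. Of 35116 RefSeq promoters of the same length, 53 held it, or 0.151%, where 24.6% held TGACG and 34.6% held ATTGG. It was not found in the windows, from 250 bases before to 50 after the start, of HLA-F, TAP1 or TAP2. An interferon-type match was found in all 6 printed stretches, against 7.66% of all promoters for the form that begins with GAA and 3.57% for the one that begins with GAAA, in overlapping copies in B2M, TAP1 and TAP2. GGGGATTC stood in HLA-B and HLA-C, against 0.888% of all promoters. Letters of the interferon type stood in TAP2, which was not highest in both libraries numbered 3, and in B2M, TAP1, HLA-B and HLA-C, which were. HLA-E, also highest in both, had no matched promoter, and the part of these letters in the pattern was not tested. HLA-F, under its detection limit, could not be placed. A match of letters is not a site in use.

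Across the 6 libraries HLA-B, HLA-E and B2M varied most alike. The Pearson correlation of log2(FPKM + 1) was 0.94 between B2M and HLA-B, 0.92 between HLA-E and HLA-B and 0.88 between B2M and HLA-E, while TAP2 ran against HLA-E at -0.79 and against B2M at -0.74. These are descriptions over 6 points that share their libraries, with the ones numbered 3 at one end. Among 10937 other genes tested, the 5 most like B2M were PTPN23, IRGQ, TBC1D13, TOM1 and DRAM2, with correlations from 0.989 to 0.996, and 5.5% of these genes exceeded 0.9. The 5 most like the summed heavy chains were IPO13, AC010761, DNASE2, MT-TK and AC106886, with correlations from 0.990 to 0.998, and 4.79% exceeded 0.9. All 10 were higher in replicate 3 than in the mean of replicates 1 and 2 in both groups. This follows largely from choosing them by likeness to values that were highest there.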

How the data were processed

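RNA-seq was available for 3 S34F and 3 WT samples, assigned to groups from the U2AF1 form each title names. The authors deposited 1 table with FPKM per gene and library. The submitters' processing notes name StringTie and edgeR, and the aligner and build are not given in the sources used here. The table's own fold changes, p-values and q-values were not used, nor were they compared. Identifiers were matched to GENCODE 29 on GRCh38, which holds 31002 of the 31142. Depth was estimated from single-exon genes, since FPKM carry no counts, and detection limits use 3 fragments at 20.5 M fragments.

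S34F was compared with WT by limma 3.58.1 (R 4.3.3) on log2(FPKM + 1) with a mean-variance trend, over 10942 genes with a mean of at least 1 FPKM, with Benjamini-Hochberg adjustment over all of them. A fold change on this scale understates that of low genes. Same-numbered libraries had deviations that correlated at 0.212, 0.174 and 0.380. S34F replicate 2 with WT replicate 1 (0.197) and S34F replicate 1 with WT replicate 2 (0.134) did so as well, so replicates 1 and 2 are not told apart. Deviations from a group mean sum to 0, so a pattern of the libraries numbered 3 alone can make all values among replicates 1 and 2 positive. These values therefore do not show that replicates 1 or 2 are pairs. Libraries of the same number were treated as pairs in an alternative fit with a block. The genes and lists were chosen with earlier results of these data known. Named genes were the 9, the 3 most abundant of each list, those tested with p under 0.05 and the nearest by correlation. Others, such as CANX, PSME3, PSMB8, PSMB9, PSMB10, TAPBP, ERAP1, ERAP2, MICA, MICB, CD74, CIITA, HLA-DRB1, ATF1, IRF1, IRF2, IRF8, IRF9, CREB1, LYZ, NKG7, CD3D, NFKB2, NFYC, EZH1, RFX5 and RFXAP, were chosen after their values were seen. Promoters came from RefSeq. Other steps ran in Python 3.11.15 with scipy 1.17.1, pandas 2.3.3, matplotlib 3.10.9 and numpy 2.4.6.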

Additional observations from a re-analysis of the deposited data

How the results depend on the processing

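The count of 0 called genes among the 5 tested held under all alternatives run, while the count over all genes moved. From 64 it went to 122 with a pseudocount of 0.1 or 0.01, to 22 with a mean of at least 5 FPKM, to 183 without both libraries numbered 3, to 262 with no fold limit and to 0 with an adjusted p under 0.05 (limma), and leaving out 1 library gave 66 to 180, the highest without S34F replicate 3. It was 87 in the fit with the replicate block, and the block changed no call among the 9 genes, while HSPA5 came under an unadjusted p of 0.05 (p of 0.012, limma). CTSS made 1 called class II gene without S34F replicate 3 and without both libraries numbered 3, and leaving out 1 library gave 0 to 1. MTF2 made 1 regulator at an unadjusted p under 0.05 with no fold limit. With 1 library left out, the log2 difference ran from -0.15 to 0.18 for HLA-B, turned without S34F replicate 3 or WT replicate 1, and from -0.14 to 0.22 for HLA-C, turned without the same libraries. It ran from -0.32 to 0.036 for HLA-E, turned without WT replicate 3, and from -0.32 to 0.24 for B2M, turned without S34F replicate 3 or WT replicate 2. For TAP1 it ran from -0.023 to 0.42, turned without WT replicate 1 or 2. It ran from 0.042 to 0.24 for TAP2, from 0.00098 to 0.025 for NLRC5 and from -0.20 to -0.0096 for HLA-DRA, the last without WT replicate 2. For the summed heavy chains it ran from -0.32 to 0.060 and turned without S34F replicate 1 (0.0072) or 2 (0.012) or WT replicate 3. Without both libraries numbered 3 it turned to -0.051 for HLA-B, -0.11 for B2M and -0.0063 for NLRC5. The cause was not tested. No filtered value exists for HLA-B, HLA-F, NLRC5 and HLA-DRA, and HLA-F got no fold. The scalings of the counts in the libraries numbered 3 were added after seeing the data.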
